A study of Homo sapiens with 24 samples.

Results

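The RNAs described here are 175 long intergenic noncoding RNAs (lincRNAs) of human embryonic stem cells: autosomal genes that GENCODE release 29 types as lincRNA. They were chosen by their measured level, a mean of at least 5 CPM (read counts scaled to library size) in 1 or more of 8 groups of libraries, and 4 genes were left out by name (MEG3, MEG8, H19 and YPEL3-DT). They are 175 of 6418 autosomal lincRNAs and of 57820 genes in the deposited gene table. The cells were HUES6, an established human embryonic stem cell line grown in FTDA, a defined maintenance medium. Cells lacking RBPMS, an RNA-binding protein (KO), and unmodified HUES6 cells (WT) were followed at 0, 3, 6 and 48 h of mesoderm induction with 1.5 ng/ml of the growth factor BMP4 and 1.5 µM of CHIR, an activator of WNT signalling. Each of the 8 groups held 3 libraries of stranded, poly(A)-selected RNA, and as far as the labels say KO and WT libraries of an hour differed by genotype only. The labels give neither the number of KO clones nor separate cultures behind the 3 libraries, so p-values measure the spread between these libraries.

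LincRNAs are transcribed by RNA polymerase II between protein-coding genes, are mostly spliced and polyadenylated, and encode no known protein. In human pluripotent cells many of them begin in, or contain, copies of the endogenous retrovirus HERVH, whose flanking LTR7 repeats act as promoters there. LINC-ROR, a regulator of reprogramming known to start within such a copy, is the best known example. Other lincRNAs are read from a start site shared with a protein-coding gene on the opposite strand, host microRNAs or small nucleolar RNAs in their introns or exons, or have structural roles in the nucleus.

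The libraries held 29896358 to 50451908 reads, and 3 reads corresponded to 0.0595 to 0.10 CPM. RBPMS mRNA averaged 155 ± 2.59 CPM in KO and 135 ± 17.2 CPM in WT cells at 0 h (SD, n = 3 each), and 86.9 ± 5.97 CPM in KO against 98.2 ± 4.74 CPM in WT cells at 48 h, so its level does not check the genotype label. Summed markers of pluripotent cells (7 genes) stood at 8425 to 8820 CPM in KO and 7488 to 8473 CPM in WT libraries at 0 h, as stem cells would show. Those of primitive streak and early mesoderm (8 genes) stood at 1054 to 1183 CPM in KO and 1730 to 1907 CPM in WT libraries at 48 h. Fibroblast markers (6 genes, of which 3 stayed under 1 CPM) summed to 389 to 404 CPM in KO and 213 to 254 CPM in WT libraries at 0 h, and to 48 to 53.4 CPM in KO and 105 to 109.9 CPM in WT libraries at 6 h. Their part in the results was not tested. 3 libraries stood apart from their own group: WT 0 h library 1 (r of 0.975 to 0.978 with its mates on the log scale), KO 3 h library 3 (0.988 to 0.989) and WT 48 h library 3 (0.991). Of the 175 lincRNAs, 43 differed over 2-fold between WT 0 h library 1 and the mean of its mates, 12 of them higher in library 1. Every comparison with WT at 0 h includes that library, and the counts of lincRNAs called there are given with and without it. All comparisons come from 1 fit with 1 estimate of the spread per gene. That library therefore also enters the error of comparisons at other hours.

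A stretch of sequence that the selection did not use ran through the most abundant of these RNAs. The first 400 bases of LINC-ROR (GENCODE transcript ENST00000553704.3, on chromosome 18) were aligned on the same strand to the annotated transcripts of all autosomal lincRNAs in the table. A match was counted from 80% identity over at least 100 bases. The match was found in 19 of the 175 lincRNAs (10.9%, LINC-ROR itself included), against 11 of the other 6243 autosomal lincRNAs of the table (0.176%), and in 6 of the 9 lincRNAs that averaged at least 100 CPM.

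AC009055.2, the second most abundant lincRNA, matched a later part of the query, bases 217 to 400, at 93.1% identity. The match is one of sequence alone, and no repeat annotation was used. How the deposited counts treated reads that fit several of these sequences is not given in the sources used here. A level may therefore include reads of a near relative. The summed level of the 19 was lowest at 6 h in both genotypes. It averaged 4608 ± 404 CPM at 0 h, 1179 ± 180.0 CPM at 3 h, 1040.2 ± 8.82 CPM at 6 h and 3071 ± 55.3 CPM at 48 h in KO cells (SD, n = 3 each). In WT cells it averaged 3366 ± 405, 1639 ± 22.5, 1274 ± 19.8 and 2839 ± 318 CPM at the same hours. Every KO library was above every WT library at 0 h and below every WT library at 6 h. They held 52.2 to 53.7% of the CPM of all 175 lincRNAs in KO and 46.6 to 50.8% in WT libraries at 0 h, and 29.1 to 30.6% in KO and 32.5 to 34.1% in WT libraries at 6 h. The other 156 lincRNAs summed to 4053 ± 252 CPM in KO and 3509 ± 280.0 CPM in WT cells at 0 h, and to 2468 ± 79 CPM in KO and 2529.9 ± 62 CPM in WT cells at 6 h.

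Levels ranged widely among the 175 lincRNAs. The mean over all 24 libraries ran from 0.969 to 769 CPM with a median of 5.94 CPM, and the 5 highest held 43.4% of all their CPM. Per kilobase of exon, which is how levels can be compared between genes, the highest were AC064802.1 (329 CPM per kb), AC009055.2 (322), AC009446.1 (311), LINC00678 (269), LINC01356 (175) and NORAD (144), against a median of 3.1 CPM per kb over the 175. The first 5 of these 6 carried the LINC-ROR match. Exon lengths were taken from GENCODE 29, while 79 of the 175 gene identifiers carried the same version in the table and in that release, so levels per kb are approximate. Of the 175, 55 reached 5 CPM in all 8 groups and 37 in 1 group only. Closest to the limit were LINC00545 at 5.02 CPM and AC008555.5 at 5.02 CPM just inside, and LINC01355 at 4.997 CPM and Z82196.2 at 4.98 CPM just outside. A lincRNA that passed only through its highest group had to differ between groups, so counts over the 175 describe the choice as well as the cells. The 97 lincRNAs that averaged at least 5 CPM over all libraries are therefore counted beside them in each of the 11 comparisons.

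**Figure D1:**
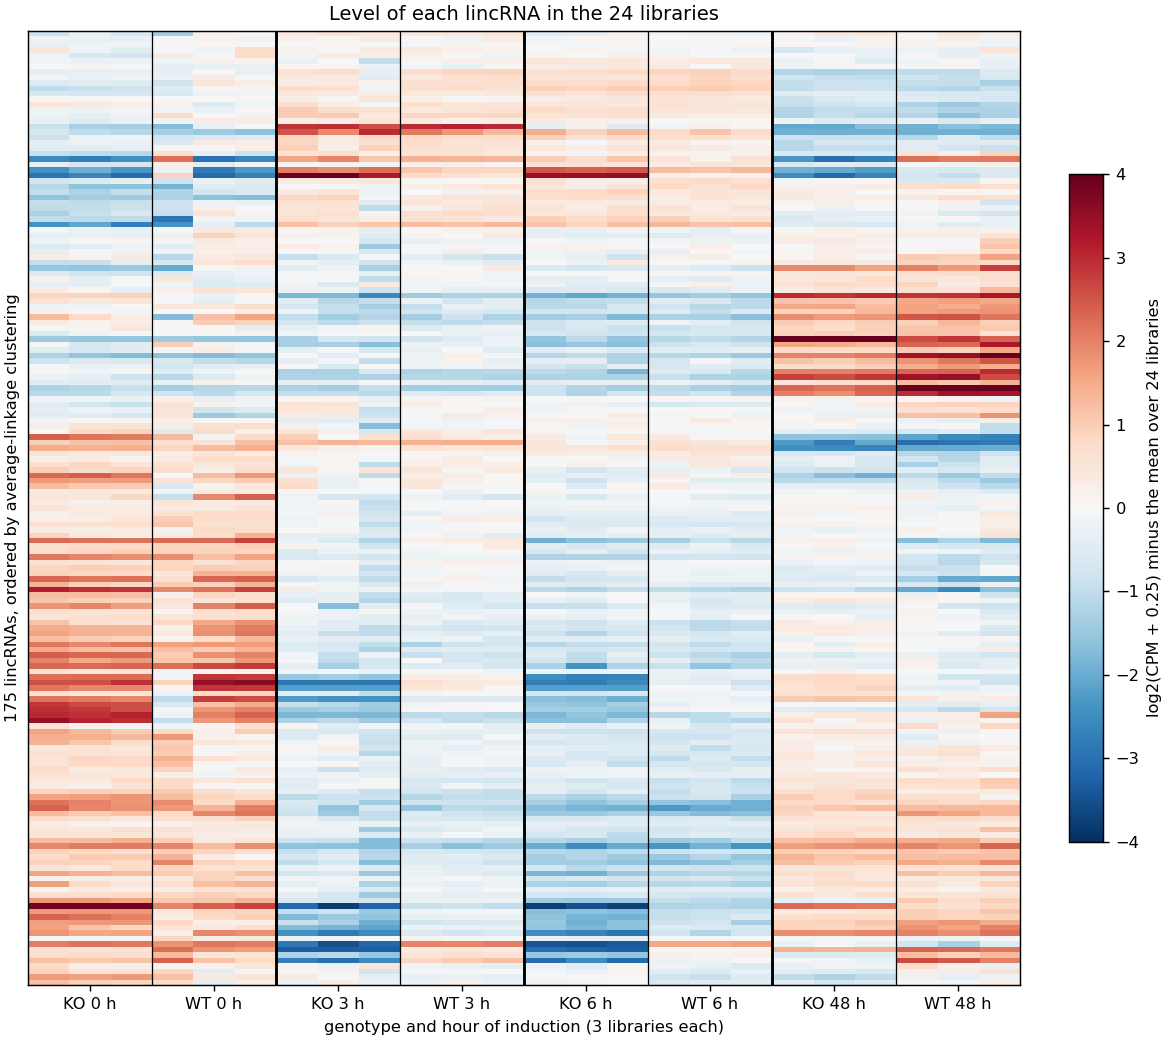
Level of each of the 175 lincRNAs (rows, ordered by average-linkage clustering) in the 24 libraries (columns, 3 for each genotype and hour), as log2(CPM + 0.25) minus the gene's mean over all libraries. Most rows are red at 0 h and blue at 3 and 6 h, a smaller block is red at 48 h alone, and the first WT column at 0 h differs from its 2 neighbours in many rows.

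More lincRNAs fell than rose during induction, in both genotypes and at every hour. In KO cells, 36 were higher and 108 lower at 3 h than at 0 h, 38 were higher and 108 lower at 6 h, and 36 were higher and 82 lower at 48 h. Over all 19835 genes tested, 33.1%, 33.4% and 25.4% were called higher and 32.6%, 35.1% and 27.4% lower at these hours (limma, Benjamini-Hochberg adjusted p under 0.05). The fallers among the lincRNAs (61.7%, 61.7% and 46.9%) lay above that background and the risers below it. In WT cells, 37 were higher and 85 lower at 3 h, 29 were higher and 101 lower at 6 h and 43 were higher and 79 lower at 48 h. Of all genes, 28.6%, 31.1% and 26.8% were called higher and 27.1%, 31% and 26.5% lower. The median log2 change of the lincRNAs was -0.81 in KO and -0.63 in WT cells at 6 h, where that of all genes was -0.02 in KO and -0.0043 in WT cells. Without WT 0 h library 1, the WT counts were 35 higher and 93 lower at 3 h, 30 and 105 at 6 h, and 43 and 79 at 48 h. Among the 97 with a mean of at least 5 CPM, 24 were higher and 59 lower at 3 h, 25 were higher and 59 lower at 6 h and 12 were higher and 50 lower at 48 h in KO cells. In WT cells 23 were higher and 48 lower at 3 h, 20 were higher and 57 lower at 6 h and 14 were higher and 53 lower at 48 h. At 48 h the risers were thus 12.4% of the 97 and 20.6% of the 175 in KO cells, and 14.4% and 24.6% in WT cells. Antisense RNA genes at the same level showed a like split, 83 of 148 lower in KO and 84 in WT cells at 6 h, whereas 3649 and 3307 of 11206 protein-coding genes were lower. In bulk RNA, fewer cells of a type and less RNA per cell cannot be told apart, and the comparisons of 1 genotype over time share its 0 h libraries.

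The fallers were largely the same genes in both genotypes. At 6 h, 95 lincRNAs were lower in both, which is 95 of 108 in KO and 95 of 101 in WT cells, and at 48 h 66 were lower in both, of 82 in KO and 79 in WT cells. These are 54.3% and 37.7% of the 175, where 26.6% and 19.8% of all genes tested were lower in both. In KO cells 65 lincRNAs were lower at 3, 6 and 48 h alike, and in WT cells 49 (37.1% in KO and 28% in WT cells, beside 15.9% and 11.3% of all genes tested). Lower at 3 and 6 h but higher at 48 h than at 0 h were 9 lincRNAs in KO cells and 10 in WT cells (5.14% and 5.71%, beside 2.66% and 3.04% of all genes tested), among them LINC01356 and LINC00664 in both.

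Nearly all of the 19 lincRNAs that match the start of LINC-ROR fell within 3 h. At 3 h 18 of 19 were lower in KO and 17 in WT cells, at 6 h 18 in KO and 17 in WT cells, and none was higher at either hour. Their median log2 change at 6 h was -2.76 in KO and -1.32 in WT cells, against -0.64 in KO and -0.48 in WT cells over the other 156. Between genotypes, the called members lay on different sides at different hours. At 0 h 9 of 19 were higher and 0 lower in KO than in WT cells. At 3 h 0 were higher and 8 lower, at 6 h 0 were higher and 7 lower, and at 48 h 5 were higher and 7 lower. The backgrounds over all genes were 8.77% higher and 6.52% lower at 0 h, 0.862% and 1.92% at 3 h, 0.555% and 1.9% at 6 h, and 6.86% and 5.07% at 48 h. Without the 3 libraries that stood apart, 11 were higher and 3 lower at 0 h, 9 lower at 3 h, 11 lower at 6 h, and 9 higher and 8 lower at 48 h. Without WT 0 h library 1 alone, 9 were higher and 3 lower in KO cells at 0 h, and in WT cells 17 were lower at 3 h, 17 at 6 h and 12 at 48 h, with 5 higher at 48 h. With the 6 libraries of 0 h fitted alone, 3 were higher in KO cells at 0 h. The group was drawn up after these values were seen, and its 19 lincRNAs share sequence, so the counts are a description.

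**Figure D2:**
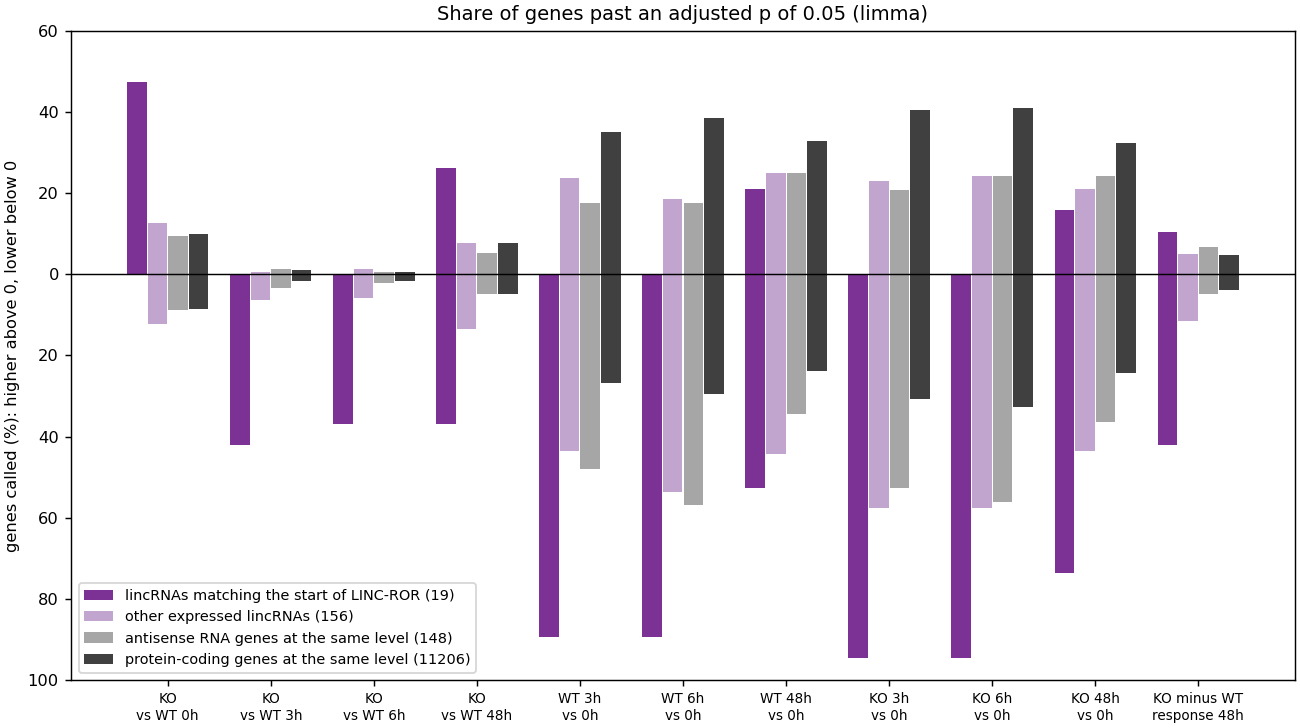
Share of genes called higher (above 0) or lower (below 0) at an adjusted p under 0.05 in each of the 11 comparisons, for the 19 lincRNAs that match the start of LINC-ROR, the other 156, 148 antisense RNA genes and 11206 protein-coding genes at the same level. The LINC-ROR group has the tallest bars below 0 in every comparison except KO against WT at 0 h, where it has none below and 47.4% above.

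LINC00458, a lincRNA of pluripotent cells on chromosome 13 (chr13:54115783-54132866, hg38), stood at 785, 797 and 794 CPM in KO and 316, 436 and 431 CPM in WT libraries at 0 h. At 6 h it stood at 74.5, 78.8 and 74.2 CPM in KO and 123, 129 and 133 CPM in WT libraries. All KO libraries were above all WT libraries at 0 h (log2 change of 1.08 ± 0.13 (SE), adjusted p = 6.3e-06) and below all of them at 6 h (-0.75 ± 0.13, adjusted p = 0.00057). AC019155.2 (chr7:125229579-125264291) had 80.4, 80.8 and 81.1 CPM in KO and 21.5, 29.2 and 35.8 CPM in WT libraries at 0 h. By 6 h its values were 0.164, 0.235 and 0.167 CPM in KO and 2.19, 2.24 and 2.06 CPM in WT libraries, and by 48 h 26.5, 24.6 and 23.8 CPM in KO and 9.39, 8.11 and 9.66 CPM in WT libraries. It was higher in all KO libraries at 0 h (log2 change of 1.56 ± 0.16 (SE), adjusted p = 1.2e-06) and 48 h (1.46 ± 0.16, adjusted p = 1.1e-06) and lower in all of them at 6 h (-2.49 ± 0.16, adjusted p = 1.3e-10). AC027288.1 (chr12:79540203-79550535) had 85.5, 78.5 and 66.7 CPM in KO and 11.5, 37.7 and 44 CPM in WT libraries at 0 h. At 3 h it had 3.73, 4.22 and 3.85 CPM in KO and 11.5, 11.9 and 11 CPM in WT libraries, so that the order of the genotypes turned round (-1.49 ± 0.27, adjusted p = 0.0015). The change at 0 h was 1.56 ± 0.27, adjusted p = 0.00051, and WT library 1 was the lowest of the 6.

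Not every lincRNA with the LINC-ROR match stayed low. LINC01356 (chr1:112820170-112850643), on the list of stem cell lincRNAs, fell at 3 and 6 h and then rose above its starting level. It stood at 229, 238 and 240.2 CPM in KO and 126, 107 and 137 CPM in WT libraries at 0 h. Its 6 h values were 33.7, 29.9 and 34.1 CPM in KO and 42.9, 47.8 and 43.5 CPM in WT libraries, and its 48 h values 1018, 936 and 1036 CPM in KO and 930.4, 968 and 1194 CPM in WT libraries. The 2 genotypes overlapped at 48 h, and each stood above all its own 0 h libraries (48 h over 0 h log2 change of 2.02 ± 0.15 (SE), adjusted p = 1.0e-10 in KO and 3.04 ± 0.15, adjusted p = 4.9e-14 in WT cells). AC131094.1 (chr4:175458289-175466697) was at or below 0.117 CPM in every library of 0, 3 and 6 h. By 48 h it had 3.08, 2.69 and 3.22 CPM in KO and 17.3, 16.7 and 29.7 CPM in WT libraries. Its lowest WT library at 48 h was above the highest KO library (log2 change of -2.65 ± 0.20 (SE), adjusted p = 4.3e-09). AC007218.1 (chr16:9666885-9676843) had 119, 102 and 99 CPM in KO and 51.3, 60.8 and 89.5 CPM in WT libraries at 0 h, and 7.17, 7.56 and 6.15 CPM in KO and 3.01, 2.04 and 3.98 CPM in WT libraries at 48 h. It fell at 48 h by 3.94 in KO and by 4.39 in WT cells on the log2 scale, and all KO libraries were above all WT libraries at both hours (KO over WT 1.20 ± 0.19, adjusted p = 8.8e-05 at 48 h). AC009055.2, which matches a later part of the query and is the most abundant after NORAD, had 1248, 1004 and 824 CPM in KO and 692, 472 and 818 CPM in WT libraries at 0 h. At 48 h it had 593, 658 and 639 CPM in KO and 362, 342 and 431 CPM in WT libraries. Its fall from 0 to 48 h passed in both genotypes (-0.74 ± 0.15, adjusted p = 0.00028 in KO and -0.79 ± 0.15, adjusted p = 0.00012 in WT cells). AC064802.1, the highest per kb, had 1203, 1094 and 1022 CPM in KO and 1048, 651 and 863 CPM in WT libraries at 0 h, and 118, 122 and 122 CPM in KO and 163, 168 and 162 CPM in WT libraries at 6 h. AC009446.1 had 388, 360.2 and 348 CPM in KO and 357, 352 and 401 CPM in WT libraries at 0 h, and 229, 249 and 239 CPM in KO and 245, 246 and 258 CPM in WT libraries at 6 h. Both were lower at 6 h in every library of either genotype (for AC064802.1 -3.10 in KO and -2.21 in WT cells, for AC009446.1 -0.52 in KO and -0.43 in WT cells, log2 scale).

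**Figure D3:**
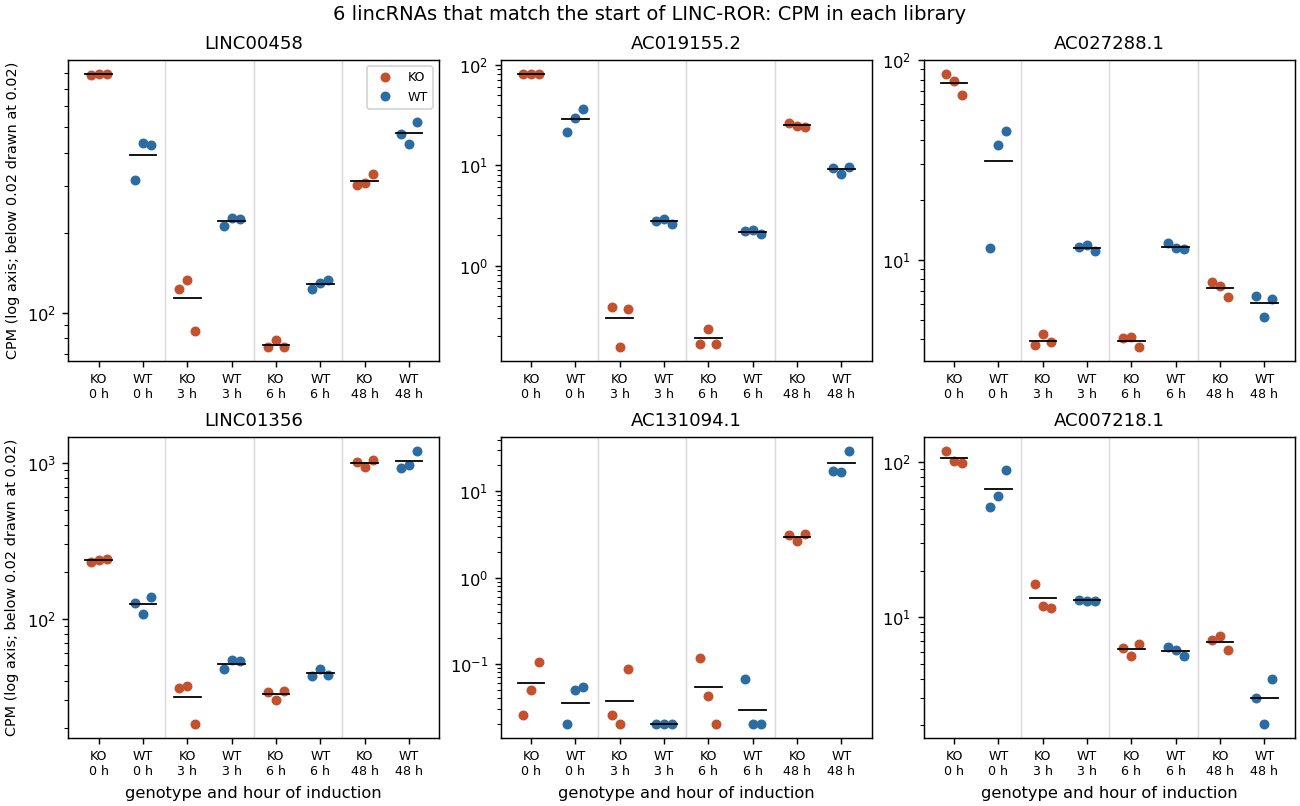
CPM in each of the 24 libraries (points, log axis, KO left of WT at each hour, bars are means of 3) for 6 of the lincRNAs that match the start of LINC-ROR. LINC00458, AC019155.2 and AC027288.1 lie higher in KO than in WT at 0 h and lower at 3 and 6 h, LINC01356 reaches 936 to 1194 CPM at 48 h, AC131094.1 is above 0.2 CPM at 48 h only, and AC007218.1 is lower at every later hour than at 0 h.

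LINC-ROR itself (chr18:57054558-57072119) had 44.4, 40.1 and 36.8 CPM in KO and 4.57, 66.1 and 59 CPM in WT libraries at 0 h. At 3 h it had 1.8, 1.6 and 1.58 CPM in KO and 6.53, 6.59 and 6.4 CPM in WT libraries. WT 0 h library 1 lay far below its mates, and KO libraries of 0 h lay between them. KO over WT missed the threshold at 3 h (log2 change of -1.83 ± 0.53 (SE), adjusted p = 0.069) although the highest KO library was below the lowest WT library. The spread used in that test includes the WT libraries of 0 h. The fall at 3 h passed in both genotypes (-4.37 in KO, adjusted p = 1.8e-07, and -1.88 in WT cells, adjusted p = 0.0043).

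Before induction the KO and WT cells differed in 48 of the 175 lincRNAs, 29 higher and 19 lower in KO cells (16.6% and 10.9%, beside 8.77% and 6.52% of all genes). Of the 97 with a mean of at least 5 CPM, 22 were higher and 12 lower. Without WT library 1 the counts were 34 higher and 41 lower, without WT library 2 they were 24 and 9, and without WT library 3 they were 30 and 9. With the 6 libraries fitted alone they were 6 and 1. MIAT, also called Gomafu, a nuclear lincRNA of neural cells (chr22:26646428-26676475), had 1057, 895 and 836 CPM in KO and 471, 178 and 337 CPM in WT libraries (log2 change of 1.65 ± 0.25 (SE), adjusted p = 0.00011). AC007207.2 had 32.9, 28.5 and 27.2 CPM in KO and 2.76, 10.1 and 12.7 CPM in WT libraries (2.06 ± 0.30, adjusted p = 7.1e-05). LINC02474 had 8.47, 6.44 and 5.88 CPM in KO and 0.151, 2.37 and 2.91 CPM in WT libraries (2.29 ± 0.45, adjusted p = 0.0015). AC008753.2 had 6.73, 6.29 and 7.16 CPM in KO and 0.518, 3.25 and 4.21 CPM in WT libraries (1.65 ± 0.41, adjusted p = 0.0084). In each of these 4, every KO library was above every WT library. Each lost the call when the 6 libraries were fitted alone (adjusted p = 0.062 for MIAT, 0.093 for AC007207.2, 0.16 for LINC02474 and 0.2 for AC008753.2), and AC008753.2 also with DESeq2 (adjusted p = 0.098).

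LINC00664, on chromosome 19 (chr19:21483374-21503238), was the 1 lincRNA that was lower in KO cells at 0 h by at least 1 on the log2 scale with no overlap between libraries, at 3.52, 3.32 and 3.38 CPM in KO and 11.2, 7.99 and 7.61 CPM in WT libraries (log2 change of -1.26 ± 0.14 (SE), adjusted p = 2.7e-06). Its exons overlap those of ZNF429 on the same strand, and how reads in the shared exons were assigned is not given in the sources used here. ERVH48-1, the source of the retrovirus-derived protein suppressyn and annotated here as lincRNA, had 46.9, 42.5 and 36.8 CPM in KO and 11, 15.7 and 17.6 CPM in WT libraries at 0 h (1.57 ± 0.14, adjusted p = 2.1e-07). At 3 h it had 2.49, 3.16 and 2.83 CPM in KO and 7.01, 7.3 and 7.31 CPM in WT libraries (-1.28 ± 0.14, adjusted p = 1.3e-06). It was named after its values were seen.

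At 3 and 6 h the lincRNAs that differed between genotypes were almost all lower in KO cells. At 3 h 1 was higher and 18 lower (0.571% and 10.3%, beside 0.862% and 1.92% of all genes). At 6 h 2 were higher and 16 lower (1.14% and 9.14%, beside 0.555% and 1.9%). Of the 97 with a mean of at least 5 CPM, 1 was higher and 12 lower at 3 h, and 2 were higher and 12 lower at 6 h. Without the 3 libraries that stood apart the counts over the 175 were 7 and 26 at 3 h and 10 and 31 at 6 h. Several of these lincRNAs were near absent in the KO libraries of 3 and 6 h while present in those of 0 and 48 h. LNCPRESS1, a p53-repressed lincRNA that binds the deacetylase SIRT6 in human embryonic stem cells (chr7:101299578-101301346), had 26.9, 29.9 and 28.3 CPM at 0 h, 0.668, 0.335 and 0.497 CPM at 3 h, 0.352, 0.342 and 0.401 CPM at 6 h and 5.26, 5.99 and 5.14 CPM at 48 h in KO cells. In WT cells it had 22.8, 28 and 26.8 CPM at 0 h, 25.8, 25.6 and 27 CPM at 3 h, 19.3, 19.2 and 20.3 CPM at 6 h and 3.61, 2.43 and 4.45 CPM at 48 h. The genotypes were far apart at 3 h (log2 change of -5.17 ± 0.17 (SE), adjusted p = 1.2e-16) and 6 h (-5.04 ± 0.17, adjusted p = 2.1e-16), with no overlap. KO over WT was 0.19 ± 0.17, adjusted p = 0.49 at 0 h, and 0.66 ± 0.17, adjusted p = 0.0095 at 48 h.

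MEG9, a maternally expressed lincRNA of the imprinted DLK1-DIO3 region on chromosome 14 (chr14:101064151-101072937), had 0 reads in all KO libraries at 3 h, and 2.71, 2.23 and 2.18 CPM in WT libraries, which puts KO at least 32.5-fold lower with the limit of 3 reads per library. Its 0 h values were 10.9, 10.9 and 13.9 CPM in KO and 3.26, 20.6 and 23 CPM in WT libraries, and its 48 h values 2.74, 2.99 and 2.77 CPM in KO and 1.45, 1.34 and 0.795 CPM in WT libraries, where all KO libraries were the higher. WT library 1 of 0 h lay far below its mates. AL117190.1, on the same chromosome (chr14:100836269-100947194), had 0 reads in all 6 KO libraries of 3 and 6 h. That is at least 16.1-fold lower at 3 h than in WT cells, and by the same limit at least 10.1-fold at 6 h. It was named after its values were seen. LINC00664 had 0 reads in KO libraries at 3 h, at least 39.2-fold lower than the 2.84, 3.02 and 2.74 CPM of WT libraries, and 6.32, 5.99 and 6.26 CPM again in KO libraries at 48 h. AC128685.1 (chr3:163026396-163232149) had 0.154, 0.0772 and 0.216 CPM in KO and 4.49, 5.29 and 5.9 CPM in WT libraries at 3 h (log2 change of -3.81 ± 0.27 (SE), adjusted p = 4.3e-10) and 5.79, 5.32 and 5.61 CPM in KO and 13.5, 5.67 and 4.4 CPM in WT libraries at 0 h.

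**Figure D4:**
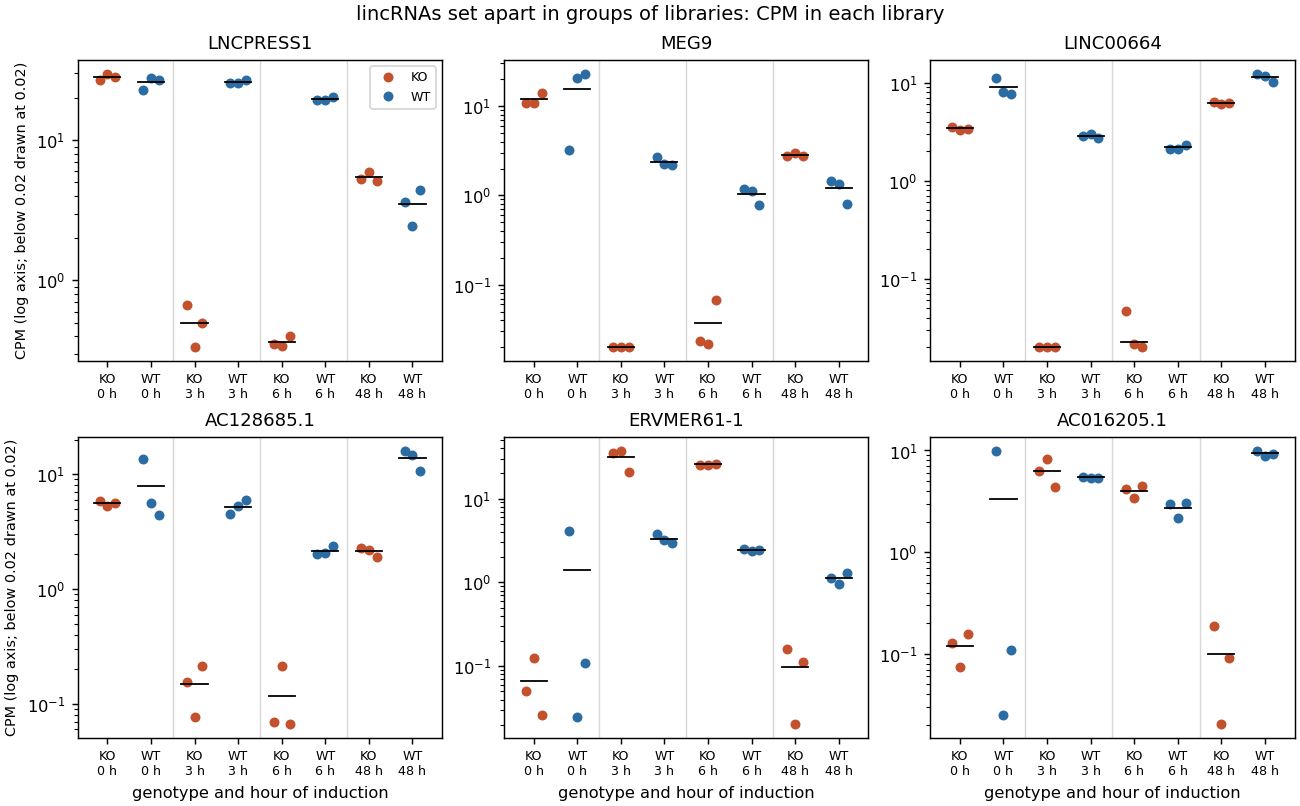
CPM in each of the 24 libraries (points, log axis, values under 0.02 drawn at 0.02, KO left of WT at each hour, bars are means of 3) for 6 lincRNAs. LNCPRESS1, MEG9, LINC00664 and AC128685.1 drop to near 0 in the KO libraries of 3 and 6 h and are present in those of 0 and 48 h, ERVMER61-1 is high in the KO libraries of 3 and 6 h, and AC016205.1 is near 0 in the KO libraries of 0 and 48 h and in 2 WT libraries of 0 h.

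The reverse pattern was rarer. ERVMER61-1, named for an endogenous retrovirus of the MER61 family (chr1:187070700-187686622), had 35, 37.3 and 21 CPM in KO and 3.8, 3.19 and 2.96 CPM in WT libraries at 3 h (log2 change of 3.10 ± 0.56 (SE), adjusted p = 0.0013). At 6 h it had 25.3, 25.5 and 26.1 CPM in KO and 2.52, 2.34 and 2.44 CPM in WT libraries (3.28 ± 0.56, adjusted p = 0.00068). It was near absent in KO libraries of 0 h, at 0.0506, 0.125 and 0.0262 CPM, and of 48 h, at 0.159, 0.0204 and 0.113 CPM, against 1.12, 0.955 and 1.3 CPM in WT libraries of 48 h. The KO over WT call at 48 h was lost when any 1 of 4 of the 6 libraries was left out (adjusted p of 0.056 to 0.098). The WT libraries of 0 h split, with 4.1, 0.025 and 0.109 CPM. AC016205.1 (chr18:39206924-39800318) split them the same way, with 0.126, 0.0749 and 0.157 CPM in KO and 9.92, 0.025 and 0.109 CPM in WT libraries at 0 h. Its 3 h values were 6.27, 8.31 and 4.34 CPM in KO and 5.49, 5.41 and 5.4 CPM in WT libraries, and its 48 h values 0.186, 0.0204 and 0.0901 CPM in KO and 9.94, 8.86 and 9.25 CPM in WT libraries (log2 change of -4.74 ± 0.73 (SE), adjusted p = 6.9e-05). For this RNA, WT libraries 2 and 3 of 0 h thus stood with the KO libraries of 0 and 48 h, and WT library 1 with the WT libraries of later hours.

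Over the 175 lincRNAs, 18 were lower in all 6 KO libraries of 3 and 6 h than in each of the other 18 libraries, LINC-ROR, LINC01108, LNCPRESS1 and ERVH48-1 among them, and 2 (AC117402.1 and ERVMER61-1) were higher than in each of the others. These are 10.3% and 1.14% of the 175, and 280 (1.41%) and 75 (0.378%) of all 19835 genes tested showed the same. Near absence was not limited to lincRNAs. Across the whole table, 41 genes were at 0.3 CPM or less in these 6 libraries and at 0.5 CPM or more in the other 18, whereas 0 genes showed this in the 6 WT libraries of 3 and 6 h. Of the 41, 23 were protein-coding (among them MGMT, a DNA repair enzyme, and the imprinted NNAT) and 4 were MEG9, LINC00664, AC128685.1 and AL117190.1. These counts were drawn up after the values were seen. Hour of induction and any other difference between the KO cultures of 3 and 6 h and those of 0 and 48 h cannot be told apart in these files.

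After 48 h of induction 17 lincRNAs were higher and 28 lower in KO than in WT cells (9.71% and 16%, beside 6.86% and 5.07% of all genes). Of the 97 with a mean of at least 5 CPM, 13 were higher and 11 lower, and without the 3 libraries that stood apart 43 of the 175 were higher. LINC00261, a lincRNA of definitive endoderm (chr20:22547671-22578642), had 12.4, 15.2 and 15.7 CPM in KO and 4.29, 5.11 and 3.5 CPM in WT libraries (log2 change of 1.71 ± 0.19 (SE), adjusted p = 1.1e-06). All KO libraries were above all WT libraries, and the summed markers of definitive endoderm (5 genes) were 253 to 285 CPM in KO and 185 to 217 CPM in WT libraries, a part that was not tested. At 0 h LINC00261 had 1 read in all in each genotype, and its ratio of 48 h to 0 h was 1714 (95% counting interval 307 to 67726) in KO and 525 (95% counting interval 93.9 to 20792) in WT cells. LINC01844 had 2.15, 2.18 and 1.55 CPM in KO and 0.399, 0.646 and 0.364 CPM in WT libraries (1.63 ± 0.21, adjusted p = 9.2e-06), again with no overlap. LINC01108, known as lncRNA-ES1 and bound to SOX2 in embryonic stem cells, had 38.6, 40 and 37.5 CPM in KO and 20.6, 13.1 and 13.7 CPM in WT libraries (1.33 ± 0.42, adjusted p = 0.043). It was higher in each KO library, but its call was lost when WT library 2 or 3 or any KO library of 48 h was left out (adjusted p of 0.092 to 0.13).

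Among those lower in KO cells at 48 h were lincRNAs that appear with mesoderm induction. LINC01124 starts 784 bases from SP5, a direct target of WNT signalling, on the opposite strand (chr2:170712451-170714567). It had 3.03, 3.04 and 3.22 CPM in KO and 8.22, 9.27 and 12.9 CPM in WT libraries (log2 change of -1.59 ± 0.19 (SE), adjusted p = 2.4e-06). At 0 h it had 5 reads in the KO and 2 reads in the WT libraries, and its ratio of 48 h to 0 h in WT cells was 629.7 (95% counting interval 174 to 5205). AP005436.3 had 2.1, 1.83 and 2.61 CPM in KO and 4.36, 5.68 and 5.45 CPM in WT libraries (-1.14 ± 0.18, adjusted p = 7.2e-05), after at most 0.152 CPM in any library of 0, 3 or 6 h. GAPLINC and LINC01980, named after their values were seen, also did not overlap, with 3.61, 3.08 and 3.87 CPM in KO and 5.73, 7.18 and 9.64 CPM in WT libraries for GAPLINC (adjusted p = 0.011). LINC01980 had 2.36, 2.0 and 1.85 CPM in KO and 5.81, 5.78 and 8.86 CPM in WT libraries (-1.56 ± 0.35, adjusted p = 0.0037). Both were already present at 0 h. GAPLINC then had 0.734 to 0.948 CPM in KO and 0.884, 0.624 and 0.544 CPM in WT libraries. LINC01980 had 1.42 to 1.69 CPM in KO and 3.54, 0.724 and 0.897 CPM in WT libraries at that hour. The summed primitive streak markers moved the same way, and their part was not tested.

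The response to 48 h differed between genotypes, tested as the KO minus the WT change, in 36 lincRNAs, 10 with a more positive and 26 with a more negative change in KO cells (5.71% and 14.9%, beside 3.83% and 3.92% of all genes). Of the 97 with a mean of at least 5 CPM, 8 were more positive and 12 more negative. The counts over the 175 became 37 and 37 without WT 0 h library 1, and 56 and 45 without the 3 libraries that stood apart. The largest positive differences called among the lincRNAs named here were those of LINC01844 (log2 change of 1.79 ± 0.30 (SE), adjusted p = 0.00046) and LINC00261 (1.71 ± 0.27, adjusted p = 0.00026), and the largest negative ones those of AC131094.1 (-2.78 ± 0.29, adjusted p = 1.6e-06) and AC128685.1 (-2.25 ± 0.38, adjusted p = 0.00043). AC016205.1 was at -3.32 ± 1.03 and narrowly missed the threshold (adjusted p = 0.05005). For LINC00261 and AC131094.1, which had few reads at 0 h, edgeR on the reads did not call the difference (adjusted p = 0.74 for LINC00261 and 0.071 for AC131094.1).

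The lincRNAs that fell furthest by 48 h included SOX21-AS1 and MIAT, known from neural cells. SOX21-AS1, which starts 317 bases from SOX21 on the opposite strand, had 4.17, 4.77 and 5.04 CPM at 0 h, 4.94, 5.61 and 5.19 CPM at 3 h, 2.84, 1.97 and 2.37 CPM at 6 h and 0.213, 0.0815 and 0.315 CPM at 48 h in KO cells. In WT cells it had 3.41, 3.15 and 4.89 CPM at 0 h and 0.0249, 0.0516 and 0.0682 CPM at 48 h (48 h over 0 h log2 change of -3.49 ± 0.18 (SE), adjusted p = 2.0e-13 in KO and -3.70 ± 0.18, adjusted p = 4.4e-14 in WT cells). All libraries of 48 h were below all libraries of the earlier hours shown. AC022784.2, among the 4 steepest risers in KO cells, had 5.37, 5.42 and 4.35 CPM in KO and 5.88, 4.73 and 10.1 CPM in WT libraries at 48 h, against 0.278, 0.275 and 0.289 CPM in KO and 0.129, 1.3 and 1.14 CPM in WT libraries at 0 h. LINC01844 was at 9.87, 9.24 and 9.29 CPM in KO and 9.88, 9.84 and 13.8 CPM in WT libraries at 0 h, and its log2 change by 48 h was -2.19 in KO and -3.99 in WT cells. MIAT fell at 48 h to 64.2, 65 and 62.3 CPM in KO and 45.7, 33.7 and 29.9 CPM in WT libraries (-3.91 in KO and -3.10 in WT cells on the log2 scale). LINC00698 fell by 4.04 in KO and by 3.20 in WT cells, LINC00707 by 3.93 and 2.16, and AL138720.1 by 2.82 and 3.61, all past the threshold.

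LINC00461 peaked at 3 h. This lincRNA, from whose locus the neural microRNA miR-9 is made (chr5:88507546-88691041), had 7.4, 7.77 and 5.75 CPM in KO and 8.03, 8.55 and 7.91 CPM in WT libraries at 3 h. By 6 h it was at 0.562, 0.92 and 0.468 CPM in KO and 0.714, 0.912 and 0.78 CPM in WT libraries. It had 0.304, 0.175 and 0.157 CPM in KO and 0.0647, 0.574 and 0.761 CPM in WT libraries at 0 h and 0, 0 and 0.0676 CPM in KO and 0.0249, 0.0775 and 0.0454 CPM in WT libraries at 48 h. The change at 3 h was 4.01 ± 0.28, adjusted p = 2.4e-11 in KO and 3.79 ± 0.28, adjusted p = 1.3e-10 in WT cells. It was called above 0 h at 6 h (1.01 ± 0.28, adjusted p = 0.0029 in KO and 0.80 ± 0.28, adjusted p = 0.016 in WT cells). At 48 h it was called below 0 h (-0.76 ± 0.28, adjusted p = 0.026 in KO and -1.08 ± 0.28, adjusted p = 0.0025 in WT cells). In WT cells the libraries of 0 h overlapped with those of 6 h and with those of 48 h. WT 0 h library 1 lay far below its mates, and both WT changes include it. All KO libraries were below all WT libraries at 3 h by a narrow margin, and KO over WT was not called there (adjusted p = 0.73).

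MIR210HG, the host of the hypoxia-induced microRNA miR-210 (chr11:565660-568457), fell and recovered. It had 9.16, 10.3 and 10.2 CPM in KO and 9.25, 5.72 and 8.59 CPM in WT libraries at 0 h. By 6 h it was at 0.375, 0.193 and 0.368 CPM in KO and 0.246, 0.416 and 0.226 CPM in WT libraries, and by 48 h at 7.63, 8.39 and 8.7 CPM in KO and 9.29, 8.24 and 12.2 CPM in WT libraries. All libraries of 3 and 6 h were below all of 0 and 48 h (6 h over 0 h log2 change of -4.14 ± 0.19 (SE), adjusted p = 2.4e-14 in KO and -3.78 ± 0.19, adjusted p = 2.9e-13 in WT cells). Its RefSeq promoter (GRCh38.p14, chr11:568408-568707, minus strand, 250 bases before to 50 after the start) is shown because the hypoxia response element core ACGTG, in capitals, occurs in it.
MIR210HG promoter: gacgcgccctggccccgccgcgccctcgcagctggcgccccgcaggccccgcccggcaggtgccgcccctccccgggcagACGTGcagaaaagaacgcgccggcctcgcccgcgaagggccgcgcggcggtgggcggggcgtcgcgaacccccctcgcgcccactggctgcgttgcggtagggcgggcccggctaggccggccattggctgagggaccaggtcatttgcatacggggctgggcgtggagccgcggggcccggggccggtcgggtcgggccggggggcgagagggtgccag

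Risers at 3 and 6 h were fewer. MIR22HG, host of miR-22, had 7.59, 6.23 and 7.96 CPM in KO and 8.64, 7.61 and 7.9 CPM in WT libraries at 6 h. Its highest values at 0 h were 0.599 CPM in KO and 2.47 CPM in WT libraries (log2 change of 3.54 ± 0.28 (SE), adjusted p = 2.2e-10 in KO and 2.61 ± 0.28, adjusted p = 5.1e-08 in WT cells). AC117402.1 had 16.6, 15.4 and 16.4 CPM in KO and 7.01, 6.36 and 7.12 CPM in WT libraries at 6 h. Every KO library was above every WT library, although KO over WT missed the threshold (adjusted p = 0.076). Its WT libraries of 0 h had 2.18, 0.175 and 0.353 CPM, and their spread enters that test. AL645608.7, 2121 bases from the start of HES4, a transcriptional repressor, had 5.17, 3.35 and 7.33 CPM in KO and 3.73, 2.95 and 2.08 CPM in WT libraries at 3 h and 0 reads in all 6 libraries of 48 h. LINC01876 was among the steepest fallers, with 0.445, 0.364 and 0.334 CPM in KO and 0.201, 0.297 and 0.327 CPM in WT libraries at 6 h. It had 11, 8.21 and 7.58 CPM in KO and 7.07, 5.37 and 8.92 CPM in WT libraries at 0 h.

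Of 8 stem cell lincRNAs on a list of known names that are among the 175, 8 were lower in KO cells at 3 h and 6 in WT cells, and none was higher at that hour (of all genes 32.6% were lower in KO and 27.1% in WT cells). At 48 h 6 were lower and 1 higher in KO cells, and 5 lower and 1 higher in WT cells, the riser being LINC01356 (of all genes 27.4% were lower and 25.4% higher in KO, and 26.5% lower and 26.8% higher in WT cells). Between genotypes, 2 were higher and 0 lower in KO cells at 0 h, 0 higher and 4 lower at 3 h, 0 higher and 3 lower at 6 h, and 3 higher and 1 lower at 48 h. Over all genes the shares were 8.77% higher at 0 h, 1.92% and 1.9% lower at 3 and 6 h, and 6.86% higher and 5.07% lower at 48 h. LINC-ROR, LINC00458, LINC00678 and LINC01356 of this list are also among the 19 that match the start of LINC-ROR, so the 2 sets are not separate. The 7 summed pluripotency markers lay at 6458 to 7423 CPM in KO and 7186 to 7514 CPM in WT libraries at 3 h, at 6489 to 6753 CPM in KO and 7052 to 7482 CPM in WT libraries at 6 h, and at 6579 to 6739 CPM in KO and 4955 to 5231 CPM in WT libraries at 48 h. Of these 7 markers, 3 were called higher in KO cells at 0 h, 1 lower at 3 h, 1 lower at 6 h and 5 higher at 48 h, and their part in the lincRNA counts was not tested. LNCPRESS2 (chr4:92268767-92277075) was called between genotypes at no hour, with 121, 98.1 and 92.8 CPM in KO and 93.9, 83.1 and 107 CPM in WT libraries at 0 h. By 6 h it was at 26.7, 24.1 and 25.6 CPM in KO and 26.8, 24.2 and 23.8 CPM in WT libraries. LINC00678 changed less over time, with 454, 435 and 416 CPM in KO and 539, 447 and 526 CPM in WT libraries at 0 h. By 48 h it was at 255, 273 and 256 CPM in KO and 169, 139 and 181 CPM in WT libraries, and all KO libraries were the higher (0.71 ± 0.11, adjusted p = 5.3e-05). LINC00545 was called between genotypes at no hour.

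Structural and broadly expressed lincRNAs moved in different directions. The values are of poly(A)-selected RNA, so transcripts without a poly(A) tail may be missed. NORAD, which binds Pumilio proteins and was the most abundant of the 175, had 707, 672 and 639 CPM in KO and 856, 606 and 691 CPM in WT libraries at 0 h. By 48 h it was at 841, 869 and 828 CPM in KO and 793, 849 and 693 CPM in WT libraries. KO and WT overlapped at 0 h (KO over WT -0.03, adjusted p = 0.91). The Pumilio motif TGTANATA occurs 15 times in its transcript and 16 times in that of HCG11, more than in any other of the 175 longest transcripts. 3 of the NORAD sites are shown with their flanks, the motif in capitals and the position of its first base counted from the 5′ end of the GENCODE 29 transcript.
NORAD, base 1140: cctcactactgTGTATATAgttgacaatgc
NORAD, base 1442: ttacttatctgTGTATATAgtgtacataaa
NORAD, base 2972: caaccctactgTGTATATAgcggacaaact
MALAT1, of nuclear speckles, fell at 6 h to 41.9, 34 and 45.9 CPM in KO and 52.2, 36.9 and 33.5 CPM in WT libraries, against 273, 200.5 and 228 CPM in KO and 149, 151 and 229 CPM in WT libraries at 0 h (-2.43 in KO and -1.97 in WT cells, both past the threshold). NEAT1, the scaffold of paraspeckles, had 75.5, 64.7 and 64.2 CPM in KO and 20.4, 34.8 and 42.4 CPM in WT libraries at 0 h, with all KO libraries above all WT libraries (log2 change of 1.17 ± 0.24 (SE), adjusted p = 0.0020), and it fell at 6 h in KO cells (-1.15 ± 0.24, adjusted p = 0.00020), while in WT cells its change at 6 h was 0.15 ± 0.24, adjusted p = 0.61. The WT change includes WT 0 h library 1, the lowest of its group. No test set the changes of KO and WT cells at 6 h against each other. CYTOR rose at 6 h in both genotypes (1.09 in KO, 1.21 in WT cells) and fell at 48 h (-0.94 and -0.65). PVT1, next to MYC, fell at 48 h (-1.08 in KO and -1.39 in WT cells). HCG11 was the single lincRNA whose 6 KO libraries of 0 and 48 h lay above all other 18 (1 of 175, beside 0.393% of all genes tested).

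Of 8 small RNA hosts among the 175, 4 rose and 2 fell at 6 h in KO cells and likewise 4 and 2 in WT cells, where 33.4% of all genes rose and 35.1% fell in KO and 31.1% and 31% in WT cells, so that the split of these 8 lies near the background. SNHG15 had 63.3, 59.7 and 65 CPM in KO and 63.4, 67.5 and 62 CPM in WT libraries at 6 h, against 15.9, 17.6 and 18.4 CPM in KO and 23.7, 34 and 35.1 CPM in WT libraries at 0 h. It rose in both genotypes and was lower in KO cells at 0 h (log2 change of -0.75 ± 0.15 (SE), adjusted p = 0.0021). EPB41L4A-AS1 rose at 6 h by 1.05 in KO and 1.34 in WT cells on the log2 scale, and SNHG18 fell by 2.20 and 1.86. SNHG8 and SNHG19 were called in none of the 11 comparisons. MIR4435-2HG had 10.9, 9.84 and 9.3 CPM in KO and 10.8, 9.79 and 11.9 CPM in WT libraries at 48 h, against 17.3, 15.2 and 16.6 CPM in KO and 15.6, 23.5 and 18.4 CPM in WT libraries at 0 h. Of 3 p53-responsive lincRNAs (PURPL, TP53TG1 and NEAT1), 3 were lower at 6 h in KO cells and 2 in WT cells, beside 35.1% and 31% of all genes. PURPL, a p53-induced lincRNA, had 66.1, 46.9 and 42.8 CPM in KO and 52.9, 86.3 and 106 CPM in WT libraries at 0 h and was lower in KO cells (-0.57 ± 0.18, adjusted p = 0.032), although the libraries overlapped. TP53TG1, a p53 target, changed at 6 h by -0.59 in KO and -0.96 in WT cells. Of 3 hypoxia-responsive lincRNAs (MIR210HG, MALAT1 and NEAT1), 3 were lower in KO and 2 in WT cells at 6 h, and none was higher, against the same background. The 2 neural lincRNAs, MIAT and LINC00461, were both lower at 48 h in either genotype, as were 27.4% of all genes in KO and 26.5% in WT cells. LINC00261 was the 1 lincRNA on the list of mesoderm and endoderm.

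Position relative to coding genes was a further feature. The lincRNA type used in the selection is itself one of position between coding genes, but no limit was set on the distance to the nearest start. The nearest protein-coding start lay within 5 kb for 44 lincRNAs, on the opposite strand and divergent for 31, and over 50 kb away for 83. In 31 divergent pairs the log2 changes of lincRNA and neighbour correlated across pairs with r = 0.89 for KO over WT at 48 h, against r = 0.02 over 66 pairs over 50 kb apart whose neighbour was tested. For KO over WT at the earlier hours the divergent pairs had r = 0.35 at 0 h, 0.33 at 3 h and 0.13 at 6 h, and the distant pairs 0.39, 0.05 and -2.5e-05, so that r at 0 h was no higher in divergent than in distant pairs. Over time the divergent pairs had r = 0.34 at 3 h, 0.30 at 6 h and 0.72 at 48 h in KO cells, where the distant pairs had 0.12, 0.14 and 0.16. In WT cells the divergent pairs had r = 0.31, 0.24 and 0.88 and the distant pairs 0.06, 0.09 and 0.19 at these hours. For the KO minus WT response r was 0.77 in divergent and 0.13 in distant pairs. Without the pair of LINC01124 and SP5, r of the divergent pairs was 0.80 for KO over WT at 48 h, 0.55 in KO and 0.77 in WT cells at 48 h, and 0.23 in KO and 0.03 in WT cells at 3 h. These correlations are across genes that share their libraries and are a description. Of 19 divergent pairs called on both sides in KO cells at 3 h, 10 moved in the same direction, and in WT cells 6 of 12. At 48 h over 0 h, 7 of 11 such pairs in KO and 10 of 12 in WT cells moved in the same direction. For KO over WT at 48 h, 4 of 31 divergent pairs were called on both sides, all 4 in the same direction. Of distant pairs called on both sides, 26 of 41 in KO and 17 of 29 in WT cells moved in the same direction at 3 h. At 48 h over 0 h these were 15 of 21 in KO and 18 of 31 in WT cells. For KO over WT at 48 h they were 5 of 6, so these counts alone do not set divergent pairs apart. SP5 beside LINC01124 averaged 41.1 ± 1.14 CPM in KO and 117 ± 34.9 CPM in WT cells at 48 h (SD, n = 3 each), a log2 change of -1.44 ± 0.20, adjusted p = 1.7e-05. GLDC, an enzyme of glycine cleavage that starts 173 bases from AL162411.1, was higher in KO cells (0.85 ± 0.09, adjusted p = 4.3e-07) as was AL162411.1 itself (0.67 ± 0.18, adjusted p = 0.013). SOX21 was higher in KO cells at 48 h (0.62 ± 0.17, adjusted p = 0.018), as was SOX21-AS1 (0.56 ± 0.18, adjusted p = 0.044). Both were near the counting floor there. SOX21 averaged 0.159 CPM in KO and 0.0083 CPM in WT cells, and SOX21-AS1 had at most 3 reads in each WT library. This pair is 1 of the 4 called on both sides. ADRA2C, an adrenergic receptor, was lower in KO cells (-0.62 ± 0.17, adjusted p = 0.017), as was LINC02600 (-0.70 ± 0.16, adjusted p = 0.0046). The pairs of GLDC and ADRA2C were named after their values were seen. The nearest coding genes of the other lincRNAs named for a comparison mostly lay farther away. For them, near stands for the nearest coding start at any distance, such as 224165 bases for DUSP10, 535967 for GPM6A and 2154888 for PIK3C3. For KO over WT, DUSP10 (near LINC02474) was 0.88 ± 0.11, adjusted p = 1.3e-05 and ZNF429 (near LINC00664) -0.38 ± 0.11, adjusted p = 0.026 at 0 h, each in the direction of its lincRNA. PARP11 (near AC007207.2), CRYBA4 (near MIAT) and NLRP12 (near AC008753.2) were not called at 0 h. ZNF429 was also lower in KO cells at 3 h (-1.11 ± 0.11, adjusted p = 3.0e-07) and 6 h (-1.19 ± 0.11, adjusted p = 8.6e-08), the hours at which LINC00664 was near absent there. ZNF429 averaged 4.93 ± 0.16 CPM in KO cells at 3 h (SD, n = 3), where LINC00664 had 0 reads. How reads in the exons that both genes share were assigned is not given in the sources used here. At 3 h PLA2G4A (near ERVMER61-1) and IFT22 (near LNCPRESS1) were not called, and IFT22 averaged 22.7 CPM in KO and 23.3 CPM in WT cells at 6 h. POT1 (near AC019155.2) averaged 28.1 CPM in KO and 28.4 CPM in WT cells at that hour. By 48 h ARHGAP26 (near LINC01844, 0.67 ± 0.13, adjusted p = 0.0011) and CD83 (near LINC01108, 0.40 ± 0.11, adjusted p = 0.023) were higher in KO cells, as were their lincRNAs, and PIK3C3 (near AC016205.1) and GPM6A (near AC131094.1) were not called. RTL1 (near MEG9) and OTOL1 (near AC128685.1) were too low to be tested.

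Over time in WT cells, RAB38 (125361 bases from AP005436.3, 1.53 ± 0.14, adjusted p = 3.2e-09) rose by 48 h as its lincRNA did. JARID2, a subunit of Polycomb repressive complexes, starts 156293 bases from AL138720.1 and fell by 48 h (-2.42 ± 0.12, adjusted p = 3.6e-14) like that lincRNA. GRIN2A, 505911 bases from AC007218.1, rose (1.40 ± 0.31, adjusted p = 0.00063) while that lincRNA fell. HES4 rose at 3 h (2.54 ± 0.37, adjusted p = 3.6e-06) with AL645608.7, which starts 2121 bases away on the same strand. LMNTD2 fell (-0.76 ± 0.24, adjusted p = 0.0090) with MIR210HG, which starts 7678 bases away and also on the same strand. MEF2C (near LINC00461) was not called. At 6 h NECTIN3 (0.58 ± 0.19, adjusted p = 0.012) and WDR81 (0.86 ± 0.13, adjusted p = 5.9e-06) rose with AC117402.1 and MIR22HG, and NR4A2 (near LINC01876) was not called. In KO cells PPP1R3B (30945 bases from AC022784.2, 1.65 ± 0.10, adjusted p = 6.7e-12) rose and CADPS (75041 bases from LINC00698, -0.67 ± 0.25, adjusted p = 0.026) and PRKCQ (199248 bases from LINC00707, -1.97 ± 0.14, adjusted p = 5.5e-11) fell by 48 h, each in the direction of its lincRNA.

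**Figure D5:**
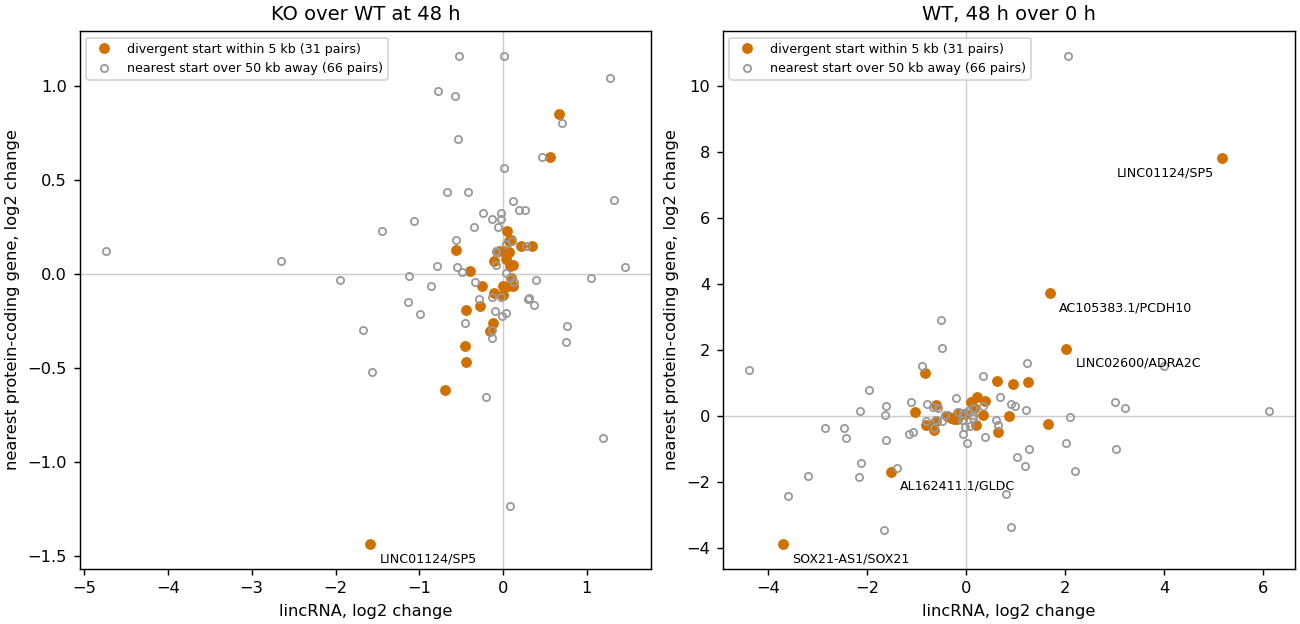
Log2 change of each lincRNA (x axis) against that of its nearest protein-coding gene (y axis), for KO over WT at 48 h (left) and WT at 48 h over 0 h (right). Filled points are 31 pairs with divergent starts within 5 kb and open points 66 pairs over 50 kb apart. LINC01124 with SP5 is the pair farthest from the centre among the filled points in both panels.

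RefSeq promoters (GRCh38.p14, 250 bases before to 50 after the start) were matched for 59 of the 175 and set beside all 27305 in the table. On either strand, the hypoxia core ACGTG was found in 17 of 59 (28.8%, all promoters 21.6%), the AP-2 motif GCCNNNGGC in 13 of 59 (22%, all promoters 23%), and the GATA motif AGATAA in 5 of 59 (8.47%, all promoters 10.5%). The octamer ATGCAAAT was in 1 of 59 (1.69%, all promoters 1.8%), that of MIR210HG. The TCF/LEF motif CTTTGAA was in 1 of 59 (1.69%, all promoters 4.53%), that of LINC01356, and CTTTGAT in 1 of 59 (1.69%, all promoters 2.64%). The T-box motif AGGTGTGA was in 1 of 59 (1.69%, all promoters 0.982%) and the CRE motif TGACGTCA in 1 of 59 (1.69%, all promoters 1.98%). A pyrimidine run of at least 5 bases beginning with C at the start site, as in terminal oligopyrimidine transcripts, was found in 2 of 59 (3.39%, all promoters 4.04%), those of SNHG18 and SNHG19. RBPMS binds pairs of CAC triplets, and pairs with 1 to 12 bases between them occurred at a median of 2.56 per kb in the longest transcripts of the 29 lincRNAs higher in KO cells at 0 h, 2.52 per kb in those of the 19 lower, and 2.39 per kb in those of the 127 not called. At 48 h the medians were 3.46 per kb in the 17 higher, 2.35 per kb in the 28 lower and 2.44 per kb in the 130 not called. The medians at 3 h were 3.43 per kb in the 18 lower and 2.38 per kb in the 156 not called, and those at 6 h 3.33 per kb in the 16 lower and 2.43 per kb in the 157 not called. The ranges overlapped, at 0 to 6.81 per kb in the lower and 0 to 11.2 per kb in the not called at 3 h, and 0 to 6.78 and 0 to 11.2 per kb at 6 h. Of those lower, 8 at 3 h and 7 at 6 h match the start of LINC-ROR and share sequence. No test was made of these shares and medians.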

How the data were processed

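RNA of 24 libraries was measured by poly(A)-selected, stranded RNA sequencing. The authors deposited a gene table whose values are CPM, and a transcript table of read counts. Genome hg38 and DESeq2 are named in the submitters' processing notes, and no aligner, counter or annotation release is given in the sources used here. For the gene table, the header stands 1 cell off the values. With the shift undone, the summed transcript counts of 24 of 24 libraries correlated best with a library of their own group, 21 of them with their own name. The CPM steps gave whole reads for 100% of values within 0.1 read. Of 57820 identifiers 90.5% were in GENCODE 29, which gave gene types, coordinates and exon lengths.

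CPM were divided by TMM factors, filtered by filterByExpr (19835 genes) and tested as log2(CPM + 0.25) with limma 3.58.1 (trend) in 1 fit over 8 groups, with 11 comparisons and Benjamini-Hochberg adjustment over all genes tested. A fold change on this scale understates the change of low genes. Counting intervals (exact, 95%) and limits of 3 reads cover counting error only. edgeR 4.0.16 on the recovered reads called 1405 genes higher and 1376 lower in KO than in WT cells at 0 h, against 1739 and 1293 with limma. DESeq2 1.42.0 was a further alternative, beside RLE factors, values as deposited, pseudocounts of 0.1 and 1, other filters, only the groups compared, a replicate block, and leaving out libraries singly or the 3 that stood apart together. The fit was tested on simulated data. BLAST 2.17.0 (blastn) aligned transcripts, and the aligned sequences are not reported here.

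The named lincRNAs were the largest called changes with |log2| of at least 1 and no overlap between libraries in each comparison, the 6 highest per kb, members of lists of known lncRNAs, and those at the limit. Genes named otherwise were chosen after their values were seen. The members and lists were chosen with earlier results of these data known.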

Additional observations from a re-analysis of the deposited data

Results flagged for a closer look

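The change between 0 and 48 h differed between genotypes in 21 of the lincRNAs named above, by the test of the KO minus the WT change (limma, adjusted p under 0.05 over all genes). The difference, on the log2(CPM + 0.25) scale, was negative in 15 of them: -2.78 for AC131094.1, -2.25 for AC128685.1, -1.98 for AC008753.2, -1.78 for LINC01980, -1.77 for LINC00707, -1.71 for LINC01124, -1.71 for ERVH48-1, -1.69 for AC007207.2, -1.65 for LINC00458, -1.29 for AC027288.1, -1.29 for GAPLINC, -1.08 for LINC02600, -1.05 for AP005436.3, -1.02 for LINC01356 and -0.84 for LINC00698. It was positive in 6: 0.59 for AC064802.1, 0.86 for LINC00678, 0.86 for PURPL, 0.92 for SNHG15, 1.71 for LINC00261 and 1.79 for LINC01844. Of the 21, AC131094.1, LINC00458, AC027288.1, LINC01356, AC064802.1 and LINC00678 match the start of LINC-ROR. The negative differences of AC131094.1, LINC01124, AP005436.3 and LINC01356 went with a smaller rise in KO cells, and those of LINC00698 and LINC00707 with a larger fall. These differences use WT 0 h library 1, which stood apart from its mates.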

How the results depend on the processing

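Leaving out 1 library at a time gave 23 to 34 higher and 7 to 41 lower for KO over WT at 0 h, 1 to 2 higher and 15 to 23 lower for KO over WT at 3 h, 1 to 2 higher and 13 to 14 lower for KO over WT at 6 h, 11 to 19 higher and 19 to 26 lower for KO over WT at 48 h, 31 to 35 higher and 81 to 93 lower for WT at 3 h, 23 to 30 higher and 91 to 105 lower for WT at 6 h, 37 to 43 higher and 66 to 79 lower for WT at 48 h, 34 to 42 higher and 101 to 107 lower for KO at 3 h, 34 to 38 higher and 103 to 108 lower for KO at 6 h, 30 to 35 higher and 74 to 78 lower for KO at 48 h, 5 to 37 higher and 20 to 37 lower for the KO minus WT response. Fitting only the groups compared gave 6 higher and 1 lower for KO over WT at 0 h, 2 higher at 3 h, 11 higher and 36 lower at 6 h, 22 higher for WT at 3 h, 28 higher for WT at 48 h and 5 higher for the KO minus WT response. Without WT 0 h library 1, KO 3 h library 3 and WT 48 h library 3 together, there were 45 higher and 57 lower at 0 h, 7 higher at 3 h, 10 higher and 31 lower at 6 h, 43 higher at 48 h, and 56 higher and 45 lower for the response. A pseudocount of 1 gave 3 higher for KO over WT at 3 h. Other counts stayed within 1.5 times under the other scalings, pseudocounts, filters, edgeR and DESeq2. For the lincRNAs that match the start of LINC-ROR, alternatives chosen after seeing the data moved the count to 3 higher for KO over WT at 0 h with only the groups compared, 3 lower for KO over WT at 0 h without the 3 libraries, 3 lower for KO over WT at 0 h without WT 0 h library 1, 12 lower for KO over WT at 6 h with only the groups compared, 11 lower for KO over WT at 6 h without the 3 libraries, 9 higher for KO over WT at 48 h without the 3 libraries, 1 higher for the KO minus WT response with only the groups compared, 6 higher for the KO minus WT response without the 3 libraries. The cause was not tested. Fitting only the groups compared leaves fewer degrees of freedom and takes the spread from those libraries alone. It lowered the counts for KO over WT at 0 h and raised those at 6 h. The replicate block, which takes replicate numbers as pairs, gave 29 higher and 18 lower for KO over WT at 0 h. Same-numbered libraries did not deviate together (r of -0.18 to 0.06), so the values gave no sign of pairing by number. Whether the libraries were made in numbered sets is not given by the labels. Of single-gene values under the alternatives, 1004 kept direction and call, 21 lost the call and 0 reversed. Values as deposited shifted WT changes at 6 h by -0.13 relative to TMM. A level of 3 reads was 0.0595 to 0.10 CPM, depending on the library.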
